A study of Rattus norvegicus with 12 samples.

Results

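The SLC25 family makes up much of the transport machinery of the mitochondrial inner membrane, and the messenger RNA of its members with symbols starting with Slc25a was followed here in rat heart muscle away from an infarct, with and without diabetes. The members were all genes whose probe sets list a single Slc25a symbol, except Slc25a20, with 1 probe set per gene, the one with the highest mean signal over all 12 arrays. The rule gave 39 carriers of the 14217 genes with a probe set of 1 symbol. Of these carriers 32 lay above the filter on low signal and were tested, and 7 lay near background.

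The rats were male Sprague-Dawley rats. At 8 weeks of age they received either 65 mg/kg streptozotocin, which kills the beta cells that make insulin and so makes the animals diabetic, or citrate buffer alone, and they lived 10 weeks without control of blood sugar before surgery. Surgery was a sham operation or ligation of the left anterior descending coronary artery, and myocardium of the left ventricular free wall remote from the infarct was taken 1, 7, 14, 28 or 56 days after ligation. The 6 non-diabetic and 6 diabetic arrays each held total RNA pooled from 3 rats, so every condition and time point was 1 sample. Labelled ages were 18 weeks for the sham and day 1 rats, 19 weeks on day 7, 20 weeks on day 14 and 22 weeks on day 28. On day 56 the label says 26 weeks for the diabetic and 22 weeks for the non-diabetic rats. For the sham pair the tissue label names an infarct and the protocol a sham operation; they were taken as sham. A chemically induced loss of beta cells is a model of insulin deficiency, and a pool hides the spread between its rats.

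The inner membrane of mitochondria is closed to most metabolites, and SLC25 carriers exchange or import them one kind at a time. In heart muscle, ADP and phosphate enter and ATP leaves through members of the family, reducing equivalents of cytosolic NADH enter through the malate-aspartate shuttle, and other members bring in amino acids, iron, cofactors and nucleotides. A few members sit elsewhere, such as Slc25a17 in the peroxisome and Slc25a46 in the outer mitochondrial membrane.

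Of the cardiomyocyte marker list, 8 of 8 measured genes lay above the filter. Their summed intensity was 45267 to 48491 on the non-diabetic and 38155 to 47553 on the diabetic arrays. All measured macrophage, fibroblast, endothelial and smooth muscle markers also lay above the filter, so passing it does not identify the tissue. Median probe set intensity ran from 28.8 to 34.7 between arrays. The day 1 and day 7 arrays stood apart from the other time points in RNA quality. Beta-actin read brighter at its 3' than at its 5' probe set by 0.98 to 1.00 (log2) there, compared with 0.37 to 0.59 for the remaining 8 arrays. Summed macrophage markers ranged from 4536 to 6048 on days 1 and 7 and from 692 to 5093 otherwise. As these are tissue samples, fewer cells of a type and less RNA per cell cannot be told apart.

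Signal levels of the family spanned a wide range, given here as the mean of log2(intensity + 16) over the 12 arrays. Intensities of different probe sets depend on their probes, so the order is one of signal and not of transcript number. The values of each carrier below are in the order sham and days 1, 7, 14, 28 and 56.

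**Figure D1:**
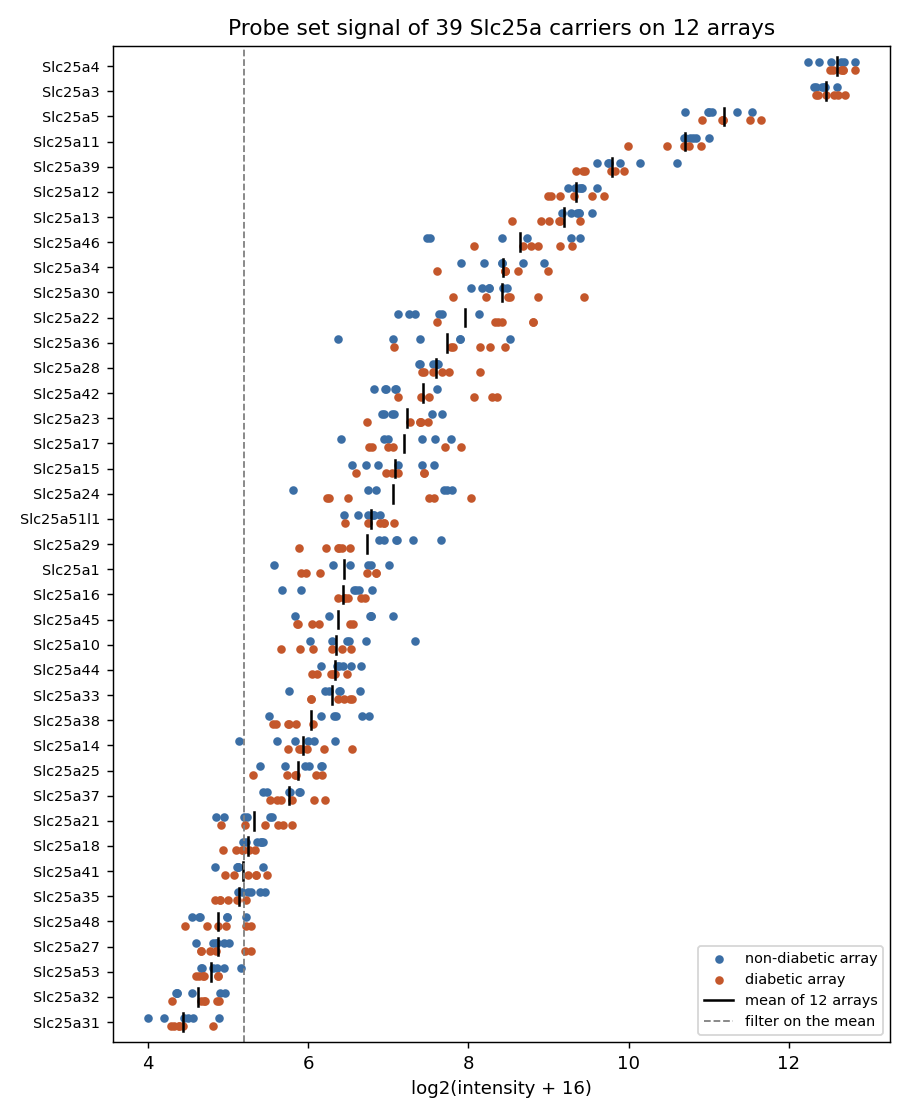
Signal of 39 Slc25a carriers, with log2(intensity + 16) on the x axis and genes ordered by mean on the y axis; each point is 1 pooled array, the short black line is the mean of 12 arrays, and the dashed line is the filter at 5.196. The 7 carriers under the line run from Slc25a41 at 5.19 to Slc25a31 at 4.44.

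The carriers of the ATP cycle gave the brightest signals. Slc25a4, the main adenine nucleotide translocase of heart muscle, which exchanges ADP for ATP, had a mean of 12.60. Its intensity was 6612, 7259, 6410, 4834, 5867 and 5296 on the non-diabetic and 6445, 5816, 7262, 5993, 6524 and 6509 on the diabetic arrays. Slc25a3, the phosphate carrier, had a mean of 12.47, with 6184, 5576, 5462, 5099, 5154 and 5556 on the non-diabetic and 6049, 5159, 5628, 5275, 6622 and 6278 on the diabetic arrays. The conditions overlapped for both genes. The difference between diabetic and non-diabetic arrays was 0.10 on the log2 scale for Slc25a4 (95% interval -0.12 to 0.31) and 0.081 for Slc25a3 (-0.11 to 0.28). Slc25a5, the second adenine nucleotide translocase, had a mean of 11.19, and the testis-type translocase Slc25a31 lay near background at 4.44. The carriers that exchange ATP-magnesium for phosphate and so set the adenine nucleotide content of the matrix were dimmer, at 7.24 for Slc25a23, 7.06 for Slc25a24, 5.87 for Slc25a25 and 5.19 for Slc25a41, the last near background.

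Next came Slc25a11 of the malate-aspartate shuttle, while Slc25a12 and Slc25a13 of the shuttle lay below Slc25a39 at 9.80. Slc25a11, which exchanges oxoglutarate for malate, had a mean of 10.70 and intensities of 1816, 1780, 1659, 2041, 1734 and 1633 on the non-diabetic and 1640, 1006, 1650, 1413, 1904 and 1708 on the diabetic arrays. Slc25a12, the aspartate-glutamate carrier of excitable tissue, had a mean of 9.34 and read 670, 649, 590, 766, 662 and 631 without and 506, 494, 622, 551, 729 and 813 with diabetes. Slc25a13, its counterpart best known from liver, had a mean of 9.19 and read 650, 731, 640, 609, 651 and 560 without and 464, 359, 657, 500, 544 and 550 with diabetes. The diabetic day 1 array was the lowest of the 12 for all 3 genes. It was also the lowest for carriers outside the shuttle, among them Slc25a39, Slc25a34, Slc25a30 and Slc25a29. Of all probe sets, 39.0% were brighter on it than on the non-diabetic day 1 array. For the 3 shuttle genes Slc25a11, Slc25a12 and Slc25a13 the conditions overlapped, and none of these 3 passed the test of diabetes. Their differences were -0.22 (adjusted p = 0.634), -0.11 (0.835) and -0.33 (0.501) on the log2 scale by limma. Among the other carriers of carboxylates, Slc25a1, the citrate carrier, had a mean of 6.45, Slc25a10, the dicarboxylate carrier, 6.35, and Slc25a21, the oxodicarboxylate carrier, 5.33.

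Carriers of amino acids outside the malate-aspartate shuttle lay lower than those of the shuttle. The glutamate carriers Slc25a22 and Slc25a18 had means of 7.96 and 5.25, the ornithine carrier Slc25a15 7.08, the basic amino acid carrier Slc25a29 6.73, the branched-chain amino acid carrier Slc25a44 6.34 and Slc25a38, which brings in glycine for haem synthesis, 6.03. For iron and thiols, Slc25a39, a carrier of glutathione, had a mean of 9.80 and the iron carriers Slc25a28 and Slc25a37 had 7.60 and 5.76. Among cofactor and nucleotide carriers the means were 7.44 for Slc25a42, which imports coenzyme A, 6.44 for Slc25a16, 7.20 for the peroxisomal Slc25a17, 7.73 and 6.30 for the pyrimidine nucleotide carriers Slc25a36 and Slc25a33, 6.78 for Slc25a51l1, and 4.63 for Slc25a32, a carrier of folate and FAD that lay near background. Of the remaining members, Slc25a46 had 8.64, Slc25a34 8.43, Slc25a30 8.42, Slc25a45 6.37 and Slc25a14 5.94. Near background were also Slc25a35 at 5.14, Slc25a48 at 4.88, Slc25a27 at 4.88 and Slc25a53 at 4.79. The spread over the 12 arrays, as the SD of the log2 values, had a median of 0.34 over the 32 carriers above the filter, from 0.12 to 0.75, beside 0.36 over all 18625 probe sets above it.

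**Figure D2:**
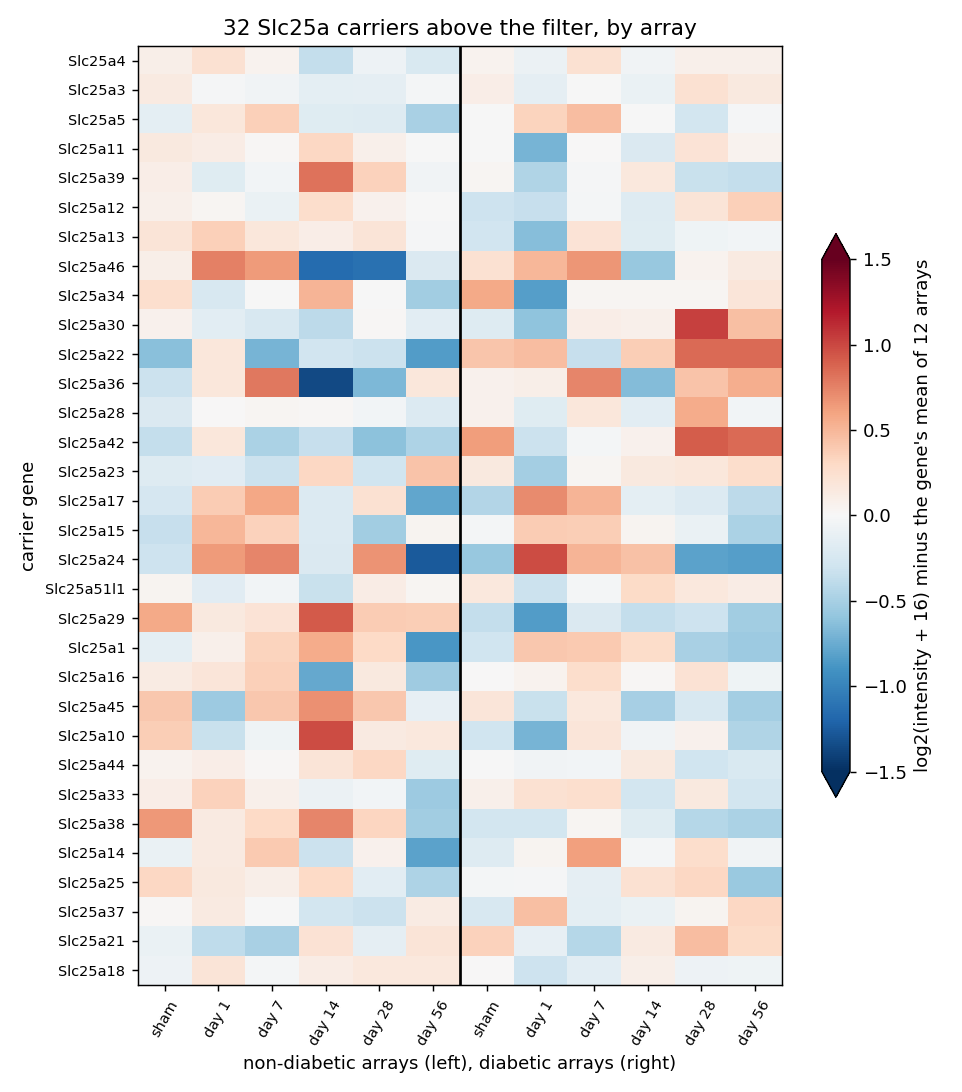
The 32 carriers above the filter (rows, by mean signal) on 12 arrays (columns), coloured by log2(intensity + 16) minus the carrier's own mean over the arrays. Slc25a29 is above its mean on the 6 non-diabetic arrays and below it on the 6 diabetic ones, and Slc25a17 and Slc25a46 are above theirs on the 4 arrays of days 1 and 7. Slc25a17 is also above its mean on the non-diabetic day 28 array. Slc25a46 is also above its mean on the sham arrays and on the diabetic arrays of days 28 and 56.

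The first comparison asked which carriers differed between diabetic and non-diabetic myocardium over the 6 pairs of arrays. Slc25a29 fell, and it was the 1 carrier of 32 that passed the test. Slc25a29 brings arginine, lysine and ornithine into mitochondria. Its intensity was 142, 102, 107, 186, 122 and 121 on the non-diabetic arrays and 67.1, 43.4, 75.6, 67.3, 69.7 and 58.4 on the diabetic arrays. Every diabetic array lay below every non-diabetic one, with the highest non-diabetic value on day 14 and the lowest diabetic value on day 1. Its log2 difference was -0.87 ± 0.14 (SE over 6 pairs, 95% interval -1.18 to -0.55), which is 1.82-fold, with adjusted p = 0.0314 by limma with Benjamini-Hochberg adjustment over 18625 probe sets. Differences within pairs were -0.93 for sham, -0.99 on day 1, -0.43 on day 7, -1.28 on day 14, -0.69 on day 28 and -0.88 on day 56. The fold is on the log2(intensity + 16) scale, which understates changes of dim genes. The family's share of calls was 3.12%, beside 0.376% of all probe sets, and the share without overlap between the conditions was 3.12%, beside 0.392%. A share of 1 in 32 is a single gene and gives no account of the family.

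The call for Slc25a29 depended on which arrays entered the fit. Its adjusted p was 0.135 without the sham pair, 0.0725 without day 1, 0.116 without day 14, 0.147 without day 56 and 0.143 without the non-diabetic day 56 array alone, while the difference stayed between -0.86 and -0.78. Within the 4 arrays of days 1 and 7 the difference was -0.71 (adjusted p = 0.999), and within the 8 others it was -0.95 (0.0950).

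**Figure D3:**
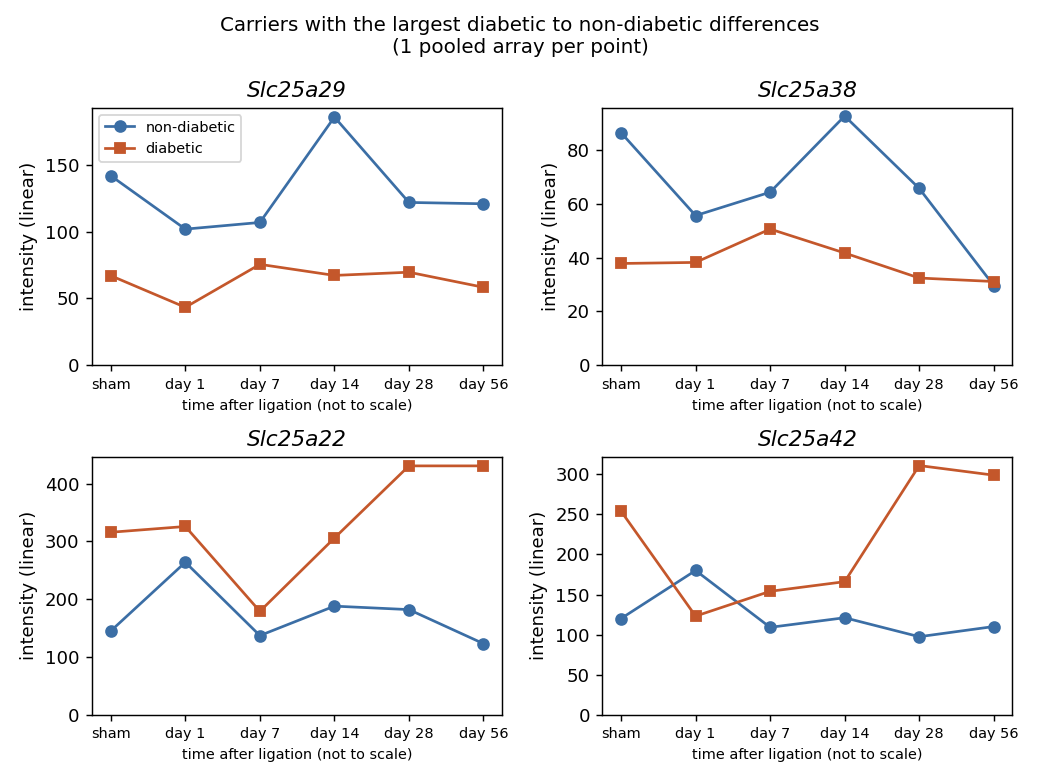
Intensity on a linear scale from 0 (y axes) at sham and 5 days after ligation (x axes, not to scale) for the 2 carriers with the largest negative and the 2 with the largest positive difference between conditions; each point is 1 array of 3 pooled rats, with no error bar. For Slc25a29 the diabetic arrays reach at most 75.6 and the non-diabetic arrays are at least 102, and for the other 3 genes the conditions overlap over the series.

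The sequence upstream of Slc25a29 is shown because the gene carries the family's only call for diabetes. RefSeq places it on the minus strand of chromosome 6 in GRCr8, and the stretch at chr6:133517323-133517447 is the 125 bases just before the gene's annotated span. The promoter table counts from a start inside that span, from which the stretch lies 250 to 126 bases away. Capitals mark matches to the CCAAT box, CCAAT on either strand.
Slc25a29 upstream: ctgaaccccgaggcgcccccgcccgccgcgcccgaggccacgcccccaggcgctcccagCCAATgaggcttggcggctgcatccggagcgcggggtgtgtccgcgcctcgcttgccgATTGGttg
The stretch is 76.0% G and C. Promoters of 33 of the 39 carriers were found in the RefSeq table. Counted by gene, over the 250 bases before any listed start, CCAAT stood in 19 of the 33 carriers, beside 36.1% of all 27457 genes. The oestrogen-related receptor element TCAAGGTCA stood in 0 of the 33, beside 0.397% of all genes, and the cAMP response element TGACGTCA in Slc25a25 and Slc25a33, beside 1.78%. The receptor and cAMP elements share the ending GTCA and can overlap. A match is a description of these letters only.

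The 7 other carriers with the largest differences between conditions did not pass the test. Slc25a22, a glutamate carrier, read 145, 264, 137, 188, 182 and 123 without and 316, 326, 179, 306, 431 and 431 with diabetes. The diabetic array was the higher one in 6 of 6 pairs, though the conditions overlapped, because the non-diabetic arrays of days 1, 14 and 28 read above the diabetic day 7 array. Its difference was 0.87 ± 0.20 (SE, n = 6 pairs; adjusted p = 0.124, limma; 95% interval 0.44 to 1.30). Slc25a42, the coenzyme A carrier, read 120, 180, 109, 121, 97.3 and 110 without and 254, 123, 154, 166, 311 and 299 with diabetes. Its diabetic arrays were highest at sham and on days 28 and 56, and the day 1 pair ran the other way. The difference was 0.70 ± 0.24 (adjusted p = 0.329, limma, n = 6 pairs).

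Slc25a36, which carries pyrimidine nucleotides, read 153, 223, 351, 66.7, 117 and 222 without and 205, 209, 336, 119, 268 and 294 with diabetes, a difference of 0.40 (adjusted p = 0.455 by limma). The pairs of days 1 and 7 lay close to 0 and the other 4 above it. Slc25a46, a member of the outer membrane linked to mitochondrial fission, read 408, 658, 604, 163, 167 and 328 without and 450, 548, 613, 253, 396 and 423 with diabetes, a difference of 0.33 (adjusted p = 0.559 by limma). Its lowest 2 arrays were the non-diabetic ones of days 14 and 28. For Slc25a30 the probe set used differed by 0.29 and a dimmer one by 0.57 (adjusted p = 0.643 and 0.341 by limma).

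On the lower side, Slc25a38, the glycine carrier, read 86.4, 55.6, 64.3, 92.6, 65.7 and 29.6 without and 37.8, 38.2, 50.6, 41.7, 32.4 and 31.1 with diabetes. The diabetic array was lower in 5 of 6 pairs, and the non-diabetic day 56 array was the lowest of all 12. The difference was -0.54 ± 0.15 (adjusted p = 0.214 by limma, n = 6 pairs). Slc25a10, the dicarboxylate carrier, read 90.0, 49.1, 62.4, 145, 73.5 and 75.4 without and 50.5, 34.5, 76.5, 62.7, 69.8 and 43.7 with diabetes, a difference of -0.42 (adjusted p = 0.408 by limma). Slc25a45 read 94.2, 40.9, 94.1, 117, 93.8 and 60.4 without and 78.2, 50.0, 76.2, 42.5, 54.4 and 42.2 with diabetes, a difference of -0.41 (adjusted p = 0.425 by limma). Both genes had their highest value on the non-diabetic day 14 array and overlapped between conditions.

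Slc25a39, a glutathione carrier, was also brightest on that array, with 935, 765, 847, 1545, 1113 and 843 without and 892, 635, 862, 972, 687 and 677 with diabetes. It differed by -0.33 (adjusted p = 0.449 by limma) with overlap. Erythroid markers, whose cells make haem with the help of Slc25a38 and Slc25a37, summed to 4454 to 6682 on the non-diabetic and 2297 to 6152 on the diabetic arrays, with a median difference of -0.21 over the 4 of 5 measured markers above the filter and 0 called. Slc25a37 differed by 0.11 and Slc25a28, the other iron carrier, by 0.14 (adjusted p = 0.792 and 0.785 by limma). The part of erythroid RNA in the values of these genes was not tested. Atrial markers, of which 3 of 4 lay above the filter, had a median difference of 0.65 with 0 called and summed to 2611 to 7545 on the non-diabetic and 5995 to 8437 on the diabetic arrays, and their part was not tested either.

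Over the family, 19 of 32 carriers had a positive and 13 a negative difference between conditions, with a median of 0.058 beside 0.013 for all probe sets. An unadjusted p under 0.05 was reached by 8 carriers, and by 10.6% of all probe sets. One direction in all 6 pairs was seen for 3 carriers, Slc25a22, Slc25a29 and Slc25a44, which is 9.38% beside 6.22% of all probe sets. For Slc25a44 the difference was -0.16 (adjusted p = 0.691 by limma). The number of carriers brighter on the diabetic array was 12 at sham, 8 on day 1, 20 on day 7, 15 on day 14, 20 on day 28 and 22 on day 56. Of all probe sets, 45.7% were brighter on the diabetic array at sham, 39.0% on day 1, 45.2% on day 7, 56.1% on day 14, 45.1% on day 28 and 69.0% on day 56.

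**Figure D4:**
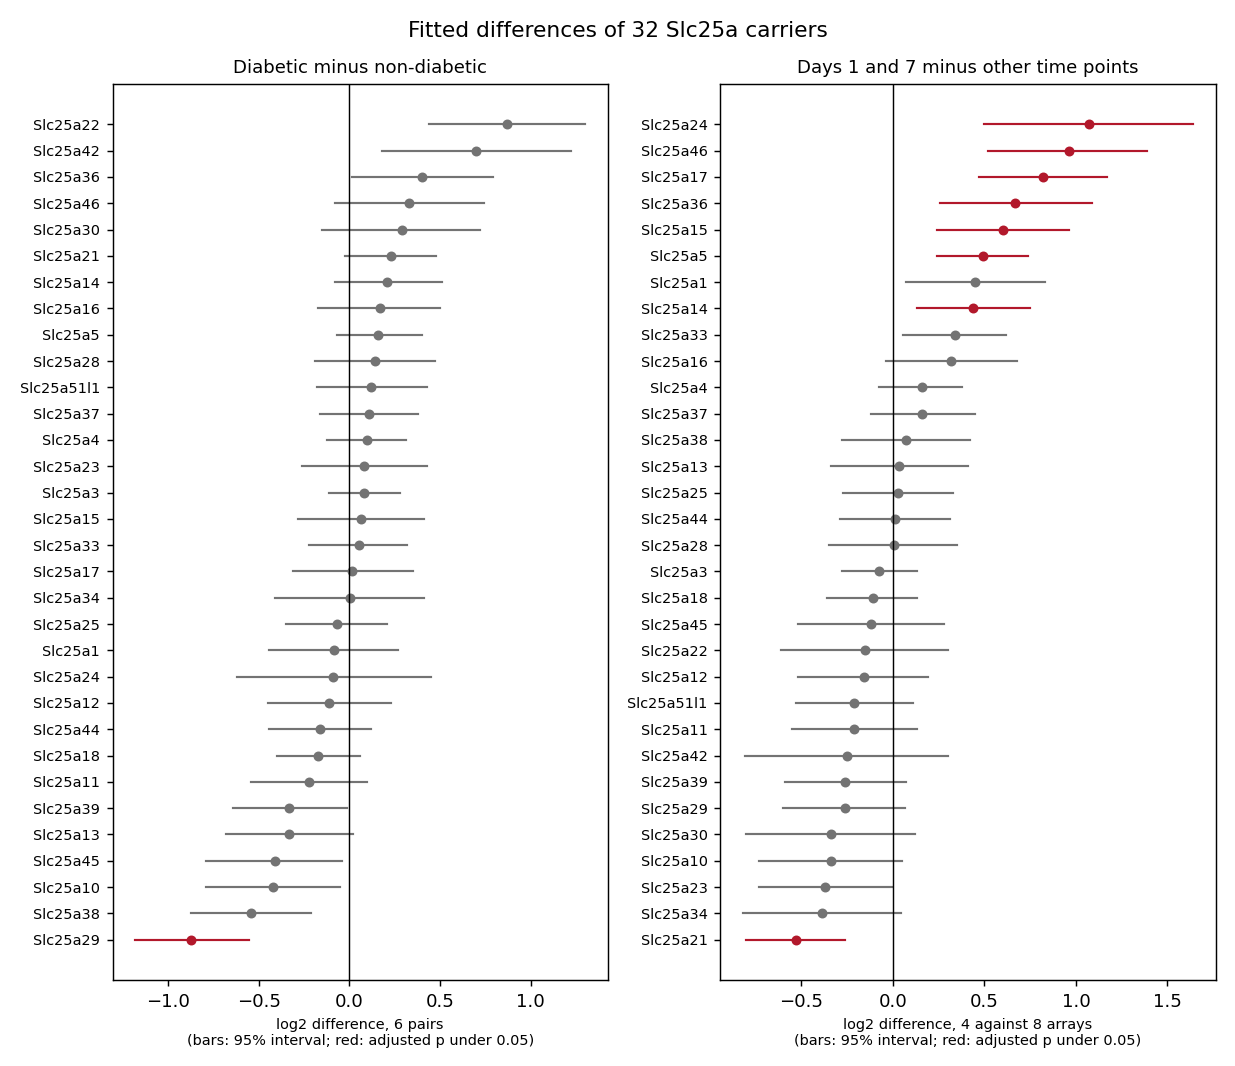
Fitted log2 differences (x axes) of 32 carriers (y axes, ordered by difference) between diabetic and non-diabetic arrays, left, and between days 1 and 7 and the other time points, right; points are estimates, bars are 95% intervals from limma, and red marks an adjusted p under 0.05. Slc25a29 is the 1 red point on the left, and on the right 7 red points lie above 0 and 1, Slc25a21, below.

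The second comparison asked how the carriers stood on each day after ligation against sham, over both conditions. The sham rats were labelled 18 weeks old and those of days 14, 28 and 56 were older. For these days, time after ligation cannot be told apart from age and from time since the injection. With 2 arrays per time point, 0 of 32 carriers passed limma's test on any day. The share of all probe sets called was 7.47% on day 1, 7.65% on day 7 and 0% on days 14, 28 and 56. An unadjusted p under 0.05 was found for 5 carriers on day 1, 6 on day 7, 3 on day 14, 0 on day 28 and 3 on day 56, beside 25.5%, 25.5%, 11.7%, 3.62% and 16.4% of all probe sets. The smallest adjusted p belonged to Slc25a17 on both of the first days, with 0.0615 on day 1 and 0.0598 on day 7 for a difference of 0.89 each. Without the day 28 pair, Slc25a17 and Slc25a24 passed on day 1 (adjusted p = 0.0295 and 0.0133), and Slc25a17, Slc25a24, Slc25a36 and Slc25a21 on day 7 (0.0275, 0.0234, 0.0389 and 0.0467). Later in the course, Slc25a46 had -1.02 and Slc25a36 -0.87 on day 14 (adjusted p = 0.402 each), and Slc25a25 had -0.65 on day 56 (0.228). The day 56 median of the family was -0.17 and that of all probe sets -0.12.

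The third comparison set the 4 arrays of days 1 and 7 against the 8 arrays of sham and days 14, 28 and 56. This is also the split in beta-actin 3' to 5' difference, so time and RNA quality cannot be told apart in it. The fit gives each time point its own mean. The SE and p-values of the third comparison therefore leave out the spread between time points on the same side. On days 1 and 7 Slc25a24, Slc25a46, Slc25a17, Slc25a36, Slc25a15, Slc25a5 and Slc25a14 were higher and Slc25a21 lower than over the other time points. That is 8 of 32 carriers or 25.0%. A rise or fall in this comparison is against the mean of sham and days 14, 28 and 56, not against sham alone. Slc25a21 passed the filter on low signal only through the 8 arrays on which it was brighter, so its place in that count follows in part from the filter. Of all probe sets 35.2% were called, 23.2% higher and 12% lower, so the family's share lay below that of all probe sets. Its median difference was 0.0064 beside 0.14 for all probe sets, and after quantile normalization these medians were -0.13 and 0.0031. That scaling also moved the split of the calls. Of the main setting's 6563 called probe sets 4328 were higher, whereas after quantile normalization 2878 of 6097 were, and for the family 7 of 8 became 4 of 9.

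**Figure D5:**
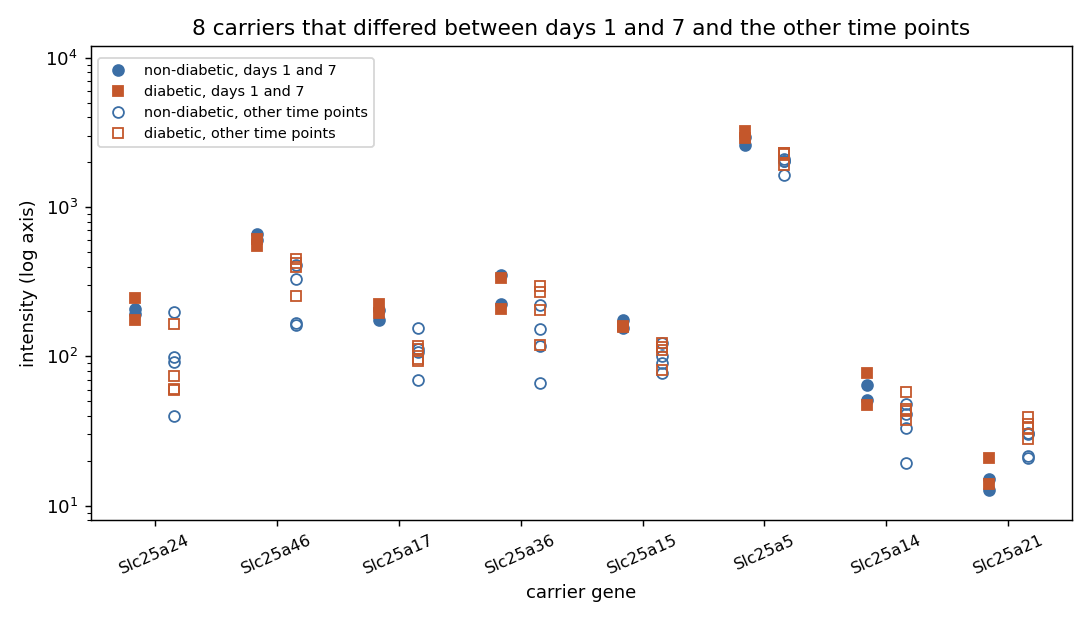
Intensity on a log axis (y) of the 8 carriers called between days 1 and 7 and the other time points (x, ordered by difference); filled symbols are the 4 arrays of days 1 and 7, open symbols the 8 others, circles non-diabetic and squares diabetic. Filled and open symbols do not overlap for Slc25a46, Slc25a17, Slc25a15 and Slc25a5.

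Among carriers of the ATP cycle, Slc25a5 read 2089, 2604, 2969, 2038, 2025 and 1648 on the non-diabetic and 2313, 2917, 3209, 2311, 1920 and 2284 on the diabetic arrays. All 4 arrays of days 1 and 7 were above the 8 others. It rose by 0.49 ± 0.11 (SE, 4 against 8 arrays; adjusted p = 0.00725, limma), and the value without the day 7 pair was 0.41 (0.105). Slc25a4, the translocase of the same reaction, differed by 0.16 (adjusted p = 0.266). The change of Slc25a5 relative to that of Slc25a4 within an array, set against the sham arrays, was 0.090 to 0.57 on days 1 and 7 and -0.19 to 0.32 on the others, with means of 0.38 (SD 0.21, n = 4) and 0.039 (SD 0.17, n = 8) on the log2 scale, and the ranges overlapped. This ratio was chosen after the values had been seen and is a description with no test.

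Slc25a24, an ATP-magnesium and phosphate carrier regulated by calcium, read 91.7, 192, 207, 99.4, 197 and 40 without and 74.3, 247, 174, 166, 60.6 and 59.6 with diabetes. The non-diabetic day 28 array stood among those of days 1 and 7, so the groups overlapped. It rose by 1.07 ± 0.26 (adjusted p = 0.00915, limma, 4 against 8 arrays), and lost the call with the pair of day 1 (0.0646) or day 56 (0.0528) left out. Slc25a23, of the same kind, read 116, 119, 105, 171, 107 and 188 without and 152, 90.2, 138, 152, 154 and 165 with diabetes, and its difference of -0.37 missed the threshold (adjusted p = 0.106) but passed after quantile normalization (0.0276).

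Slc25a17, which carries coenzyme A, FAD and NAD into peroxisomes, read 107, 176, 204, 112, 156 and 69.4 without and 92.8, 225, 194, 117, 112 and 95.7 with diabetes. Its 4 arrays of days 1 and 7 all stood above the 8 others. It rose by 0.82 ± 0.16 (adjusted p = 0.00318, limma, 4 against 8 arrays), and it passed in each of the 14 alternatives run on it, with 0.60 after quantile normalization as the smallest value. Slc25a46 was higher by 0.96 ± 0.20 (adjusted p = 0.00434, limma) from the values given with diabetes above, again without overlap. Against sham alone, Slc25a46 had 0.47 on day 1, 0.49 on day 7, -1.02 on day 14, -0.69 on day 28 and -0.19 on day 56. The 0.96 thus holds low values on days 14 and 28 as well as higher ones on days 1 and 7. Its second probe set gave 0.50 (adjusted p = 0.0984).

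Slc25a15, which brings ornithine into mitochondria, read 89.9, 175, 155, 101, 77.7 and 123 without and 116, 159, 158, 123, 110 and 80.9 with diabetes. The 2 groups of arrays did not overlap. It rose by 0.60 ± 0.17 (adjusted p = 0.0168, limma, 4 against 8 arrays). Its 4 other probe sets above the filter gave 0.53, 1.07, 0.45 and -0.053 (adjusted p = 0.0629, 0.00106, 0.0279 and 0.773), so 2 of the 4 passed. The call of the probe set used was lost after quantile normalization (0.121) and with the pair of day 1 (0.0923) or day 7 (0.0795) left out.

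Slc25a36 rose by 0.67 ± 0.19 (adjusted p = 0.0181, limma, 4 against 8 arrays), with overlap, since its arrays of day 1 read within the range of the 8 others. Against sham alone, Slc25a36 had 0.26 on day 1, 0.89 on day 7, -0.87 on day 14, 0.0066 on day 28 and 0.49 on day 56. Its other probe set gave -0.0024 (0.993), so the rise belongs to 1 of 2 probe sets. It was also lost after quantile normalization (0.0789) and with the pair of day 7 (0.336) or day 14 (0.128) left out. Slc25a14, related to the uncoupling proteins, read 41.1, 51.1, 64.5, 33.1, 48.0 and 19.2 without and 37.7, 47.3, 77.7, 44.2, 57.5 and 42.9 with diabetes. It rose by 0.44 ± 0.14 (adjusted p = 0.0319), with overlap. The call for Slc25a14 held in 7 of 13 alternatives, and its adjusted p was 0.0581 without the sham pair, 0.428 without day 7, 0.0526 without day 14, 0.0718 without day 56, 0.0613 without the non-diabetic day 56 array and 0.0877 after quantile normalization.

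Slc25a21, which exchanges oxoglutarate for oxoadipate in the breakdown of lysine and tryptophan, read 21.6, 15.0, 12.8, 30.7, 20.8 and 30.2 without and 35.3, 21.0, 14.0, 28.1, 39.5 and 33.3 with diabetes. On days 1 and 7 its mean of log2(intensity + 16) was 4.98, under the filter of 5.196, and on the other arrays it was 5.51, so the value for days 1 and 7 is near background. It fell by 0.53 on the log2 scale (SE 0.12, adjusted p = 0.00716, limma, 4 against 8 arrays). The adjusted p was 0.00656 with no filter, and without the day 7 pair the value was -0.43 (0.108). The next largest negative differences belonged to Slc25a34, Slc25a23 and Slc25a10. Slc25a34, a member without an established substrate, read 395, 277, 327, 477, 328 and 224 without and 494, 179, 337, 335, 335 and 377 with diabetes, a difference of -0.39 (adjusted p = 0.143 by limma, and 0.0267 after quantile normalization). Slc25a10 had -0.34 (adjusted p = 0.157). Slc25a44, at 0.0091 in the probe set used, gave 0.52 in its other one (adjusted p = 0.00618 by limma).

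Without overlap between the 4 and the 8 arrays were 4 of 32 carriers, 12.5% beside 19.7% of all probe sets. Leaving out the day 7 pair left Slc25a17, Slc25a24 and Slc25a46 as the calls of the family. The calls of cell markers on the same split stand beside 23.2% of all probe sets called higher and 12% called lower. Whether any list exceeded these shares was not tested. Of the macrophage markers, 6 of 6 lay above the filter, 3 were called higher and the median was 0.76. Cd68, Csf1r and Adgre1 were not called, with 0.75, 0.086 and 0.055 (adjusted p = 0.0626, 0.766 and 0.904 by limma). Of the 4 neutrophil markers 3 lay above the filter and 2 were called higher. The endothelial list had 2 of 4 called lower and a median of -0.44, and the smooth muscle list 2 of 4 and -0.40. The skeletal muscle list had 3 of the 4 above the filter called lower and -0.39, with Myh2, a fast myosin, at -1.20. Csf3r, Cnn1, Tnnt3 and Myh2 had means of 5.21, 5.26, 5.29 and 5.75, beside the filter of 5.196. Each passed it only through the arrays on which it was brighter, so these calls follow in part from the filter. The part of these cells and of RNA quality in the differences of the carriers was not tested.

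Whether the difference between conditions itself varied with time was asked by 2 further tests. For days 1 and 7 against the other time points 0 of 32 carriers and 0% of all probe sets were called by limma, with an unadjusted p under 0.05 for 2 carriers and 4.04% of all probe sets. These 2 were Slc25a42 with -1.09 ± 0.41 and Slc25a22 with -0.82 ± 0.35 (adjusted p = 0.999 each). For ligated against sham arrays 0 carriers and 0% of all probe sets were called, 0 carriers and 0.671% of all probe sets reached an unadjusted p under 0.05, and differences ran from -0.37 to 0.66. With 4 residual degrees of freedom these tests do not show that the conditions responded alike.

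Genes listed beside the family's Slc25a members gave 0 calls for diabetes, while 0.376% of all probe sets were called. Of 20 other proteins of mitochondrial membrane transport above the filter, the largest differences were 1.14 for Ucp3, an uncoupling protein of the same family under another symbol, and -0.67 for Sfxn5, a sideroflexin (adjusted p = 0.0692 and 0.0900 by limma). Sfxn5 had a mean of 5.34, beside the filter of 5.196, and passed the filter only through the non-diabetic arrays. Mpc1, a subunit of the pyruvate carrier, had -0.32 (0.232). Of 21 enzymes that make or use the carriers' substrates, Bcat2, the mitochondrial branched-chain aminotransferase, had -0.93 (0.0574) and Fech, which inserts iron into haem, -0.40 (0.363). On days 1 and 7, Mcu, the pore of the calcium uniporter, and Sfxn1, a serine transporter, rose by 0.63 and 0.98 and Mtch1 fell by 0.64 among the 20. Acly, which splits exported citrate, Oat, the ornithine aminotransferase, and Pank3, of coenzyme A synthesis, rose by 0.66, 0.61 and 0.83 among the 21 enzymes, and Ckmt1, a mitochondrial creatine kinase, fell by 1.14. Of 13 genes of mitochondrial mass and import 5 rose, Tomm20, Tomm70, Timm44, Hspd1 and Tfam, by 0.66 to 1.70 (all these calls at an adjusted p under 0.05 by limma), beside the 23.2% of all probe sets that were higher.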

How the data were processed

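The deposited values are linear intensities, 1 per probe set and array, for which the submitters' processing notes name Affymetrix Expression Console and PLIER. How the authors corrected background or scaled arrays, and tool versions, were not given in the sources used here. Of 31099 probe sets 57 controls were left out, 20826 of the rest had 1 platform gene symbol, 436 several and 9780 were not listed. Values were used as log2(intensity + 16), and 18625 probe sets above the 40th percentile of the mean (5.196) entered the fit. Time point and diabetes were fitted with limma 3.58.1 (R 4.3.3) to 12 arrays (5 residual degrees of freedom, 4 for interactions), with variances following the mean and Benjamini-Hochberg adjustment over all tested probe sets at 0.05. For diabetes the 6 time points serve as replicates. Each time point has its own mean in the fit. P-values therefore measure how the difference between the conditions varied over the time points, part of which may be technical. For comparisons of time points, the diabetic and the non-diabetic array serve as the replicates of a time point. The number of arrays limits the precision.

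Full array values are given for carriers that passed any test, for the 8 with the highest mean, and for the 4 largest differences in each direction for diabetes and for days 1 and 7. Members, lists and tests were chosen with earlier results of these data known. Alternatives were the offset, scaling, filter, variance trend, other probe sets, time points left out and subsets of arrays. The fit was tested on simulated data. The 39 Entrez IDs were all found in the RefSeq table, whose assembly is GRCr8; 2 probe sets listing Slc25a51 under 2 gene IDs were not used.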

Additional observations from a re-analysis of the deposited data

Results flagged for a closer look

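For Slc25a36 the sign of the difference between conditions was not the same at all times, though no such change of direction passed a test. Diabetic minus non-diabetic values were -0.084 on day 1 and -0.057 on day 7 and above 0 in the 4 other pairs, from 0.38 to 1.10, so the mean of days 1 and 7 minus the mean of the others was -0.71 on the log2 scale. Both early pairs lay close to 0, and limma's test of this difference gave an adjusted p of 0.999.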

How the results depend on the processing

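The count of carriers called for diabetes, 1, became 0 within the 8 arrays outside days 1 and 7, within the 4 arrays of those days and without the non-diabetic day 56 array, and was 0 to 1 when a time point was left out. Slc25a29 passed in 9 of 16 alternatives, with values of -1.01 to -0.60. On the 4 arrays of days 1 and 7 the diabetes difference turned to -0.12 for Slc25a46, -0.071 for Slc25a36 and -0.024 for Slc25a42. Leaving out a time point gave 0 to 2 carriers on day 1 (905 to 2701 of all probe sets), 0 to 4 on day 7 (1118 to 2846) and 3 to 10 for days 1 and 7 against the others (3259 to 7872), with the most of both without the day 28 pair. With other probe sets 1 carrier passed on day 7, Slc25a44 (the cause is that gene's other probe set), and Slc25a36 on days 1 and 7 became -0.0024. The cause of the other changes was not tested. Of 286 values of single carriers under alternatives, 255 kept direction and side of the threshold, 25 lost a call, 2 gained one and 4 reversed. The diabetes fit already pairs the arrays by time point, and no block by replicate number was fitted, since the labels give none. Dim carriers, such as Slc25a21, are limited by signal over background.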
